A study of Oryza sativa Japonica Group with 8 samples.

Results

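Heterotrimeric G proteins relay signals from the cell surface through an alpha subunit, which binds guanine nucleotides, and a dimer of a beta and a gamma subunit. In rice these subunits are known from plant stature, panicle architecture and grain size. The genes described here are 6 of the 37859 genes in the deposited expression table, chosen by their RAP identifiers: the alpha gene RGA1 (Os05g0333200), the beta gene RGB1 (Os03g0669200) and the gamma genes RGG1 (Os03g0635100), RGG2 (Os02g0137800), DEP1 (Os09g0441900) and GS3 (Os03g0407400). RGA1 is the gene behind the dwarf mutant d1. DEP1 is the gene whose truncated allele gives dense and erect panicles, and GS3 is a major gene of grain length. DEP1 and GS3 encode gamma subunits with long cysteine-rich tails, whereas RGG1 and RGG2 encode small gamma subunits. No expression value entered the rule that chose the genes, but earlier results of these data were known at that time. By their identifiers RGB1, RGG1 and GS3 lie on chromosome 3, RGA1 on chromosome 5, RGG2 on chromosome 2 and DEP1 on chromosome 9.

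RNA was sequenced from dissected inflorescence meristems of rice cultivar Nipponbare, from 4 libraries of an osg1l2 single mutant and 4 libraries of a wild type control. OsG1L2 is an ALOG family protein, and the title of the study links it to the control of inflorescence branching. All plants of both genotypes were moved from long days (16 h light) to short days (12 h light) and were sampled after 12 days of short days. Both genotypes were grown at 28 °C in light, 26 °C in dark and 70% humidity. The labels do not give the osg1l2 allele, the number of independent lines or the number of plants pooled per library, so the p-values reflect only how much these libraries vary, which may be technical. The labels describe the material as enriched in early meristem stages, and fewer cells of a type and less RNA per cell cannot be told apart in such bulk samples.

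The deposited values are FPKM (fragment counts scaled for gene length and library size by the authors), whose sum lay between 213940 and 231675 per library. How deeply each library was sequenced is not known from these values. On the first principal component of log2(FPKM + 1), with 40.5% of the variance, wild type libraries lay between -21.5 and -11.5. The osg1l2 libraries lay between 13.2 and 22.6 on it. On the second, with 17.9% of the variance, wild type replicate 2 lay at -28.4 and the rest of its group between 4.87 and 10.8. Values without this library are therefore given for the gene folds, the ratios, the gamma shares and the summed FPKM. Since no deposited table links identifiers to names, neither OsG1L2 nor markers of the meristem were used to check the labels.

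DEP1 was the most abundant of the 6 transcripts in both genotypes and GS3 the least abundant. Per FPKM, which is scaled for gene length, the order in wild type was DEP1, RGA1, RGB1, RGG2, RGG1 and GS3, and it was the same in osg1l2. Each neighbouring pair in this order had ranges over the 4 libraries of a genotype that did not overlap. The closest pair was RGA1 and RGB1. The mean of RGA1 was 1.30 times that of RGB1 in wild type and 1.19 times in osg1l2. The widest step lay between RGG2 and RGG1, at 14.7 times in wild type and 13.3 times in osg1l2.

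**Figure D1:**
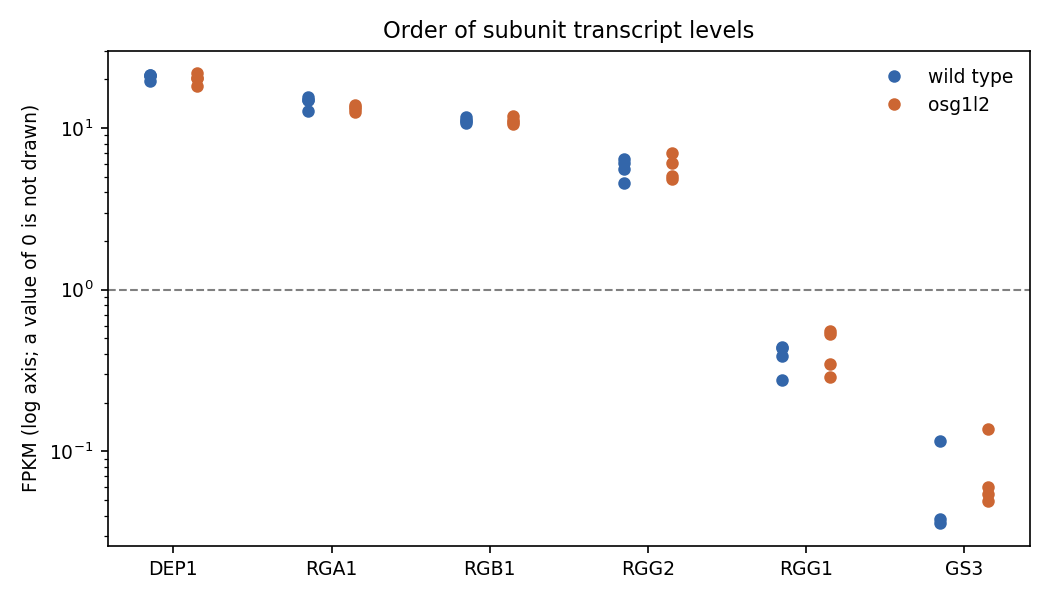
Transcript levels of the 6 G protein genes in FPKM on a log axis, with each point 1 library, wild type in blue and osg1l2 in orange; the dashed line is the mean of 1 FPKM used as the filter of the test. DEP1, RGA1, RGB1 and RGG2 lie above the line in all 8 libraries and RGG1 and GS3 below it; the wild type library of GS3 listed at 0 is not drawn.

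Over all 8 libraries DEP1 averaged 20.5 FPKM, above 94.3% of all genes in the table. RGA1 averaged 13.9 FPKM, above 90.6% of all genes, and RGB1 averaged 11.2 FPKM, above 88.0%. RGG2 averaged 5.69 FPKM, above 77.4% of all genes. RGG1 averaged 0.408 FPKM and GS3 0.0617 FPKM, each below the mean of 1 FPKM that the test required.

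RGA1, the alpha subunit, measured 14.8, 15.6, 14.8 and 12.8 FPKM in wild type replicates 1 to 4 and 12.5, 13.5, 13.2 and 13.9 FPKM in osg1l2 replicates 1 to 4. Wild type replicates 1, 2 and 3 were above all osg1l2 libraries, but wild type replicate 4 was below 3 of them, so the groups overlap. Wild type averaged 14.5 FPKM ± 1.18 (SD, n = 4) and osg1l2 averaged 13.3 FPKM ± 0.601 (SD, n = 4). Computed on log2(FPKM + 1), the log2 fold change (mutant over wild type) was -0.12 ± 0.065 (SE), the furthest from 0 among the 6 genes at that pseudocount. It did not pass the test across all genes (limma adjusted p = 0.35), and a two-sided exact permutation test between the genotypes gave p = 0.11. The 95% interval ran from -0.26 to 0.027.

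RGB1, the beta subunit, measured 11.7, 11.2, 10.7 and 11.1 FPKM in wild type, and 10.6, 11.9, 11.0 and 11.2 FPKM in osg1l2. The highest and the lowest of these 8 values were both in osg1l2, and the ranges overlap. Wild type averaged 11.2 FPKM ± 0.438 (SD, n = 4) and osg1l2 averaged 11.2 FPKM ± 0.536 (SD, n = 4). The log2 fold change was -0.0036 with a 95% interval of -0.12 to 0.11 (limma adjusted p = 0.98; exact permutation p = 0.91). On the log2 scale RGB1 varied less within genotypes (SD 0.058) than 87.2% of the 4047 tested genes within 1.5 times of its level.

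**Figure D2:**
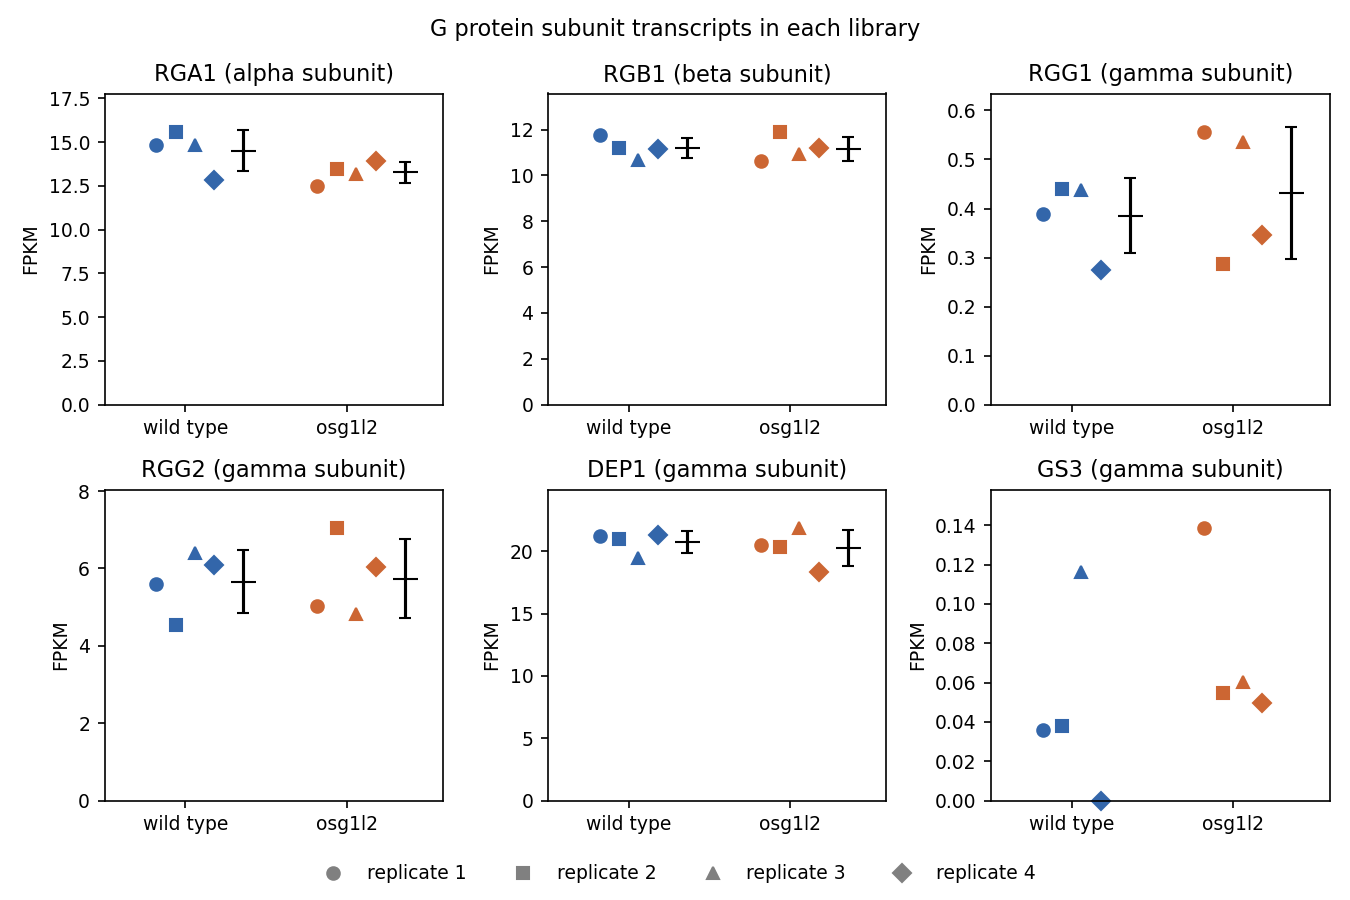
FPKM of each G protein gene by genotype, with symbols for replicates 1 to 4 and, except for GS3, the mean ± SD of 4 libraries at the right of each group; every axis starts at 0 and has its own scale. The ranges of the genotypes overlap for all 6 genes, and the 3 highest RGA1 libraries are wild type replicates 1, 2 and 3.

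Among the gamma genes, DEP1 measured 21.2, 21.0, 19.4 and 21.3 FPKM in wild type. In osg1l2 it measured 20.5, 20.3, 21.8 and 18.3 FPKM, so both the highest and the lowest of the 8 values were in the mutant. The mean of wild type was 20.7 FPKM ± 0.880 (SD, n = 4) and that of osg1l2 20.2 FPKM ± 1.45 (SD, n = 4). The log2 fold change was -0.034 ± 0.061 (SE; limma adjusted p = 0.80; exact permutation p = 0.60). Its 95% interval of -0.17 to 0.10 corresponds to a change in FPKM + 1 of -11.1% to 7.37%.

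RGG2 was at 5.59, 4.55, 6.41 and 6.08 FPKM in wild type and at 5.03, 7.03, 4.82 and 6.04 FPKM in osg1l2. The lowest value was in wild type replicate 2, the library that stood apart, and the highest in osg1l2 replicate 2. Its wild type mean was 5.66 FPKM ± 0.812 (SD, n = 4), and its osg1l2 mean was 5.73 FPKM ± 1.02 (SD, n = 4). The log2 fold change was 0.012 with a 95% interval of -0.26 to 0.28 (limma adjusted p = 0.97; exact permutation p = 0.97). RGG2 was the most variable of the 4 genes above the filter. Its SD within genotypes was 0.20 on the log2 scale, against a median of 0.10 for the 5387 tested genes within 1.5 times of its level, and 11.1% of those genes varied more. The interval for RGG2 is accordingly the widest of the 4 and leaves room for a change in FPKM + 1 of -16.5% to 21.7%.

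RGG1 was at 0.388, 0.439, 0.438 and 0.276 FPKM in wild type and at 0.555, 0.287, 0.536 and 0.347 FPKM in osg1l2. Replicates 1 and 3 of osg1l2 were above every wild type library, and its replicates 2 and 4 were below 3 of the 4 wild type libraries. RGG1 averaged 0.385 FPKM ± 0.0770 (SD, n = 4) in wild type libraries and, in osg1l2, 0.431 FPKM ± 0.135 (SD, n = 4). The exact permutation test gave p = 0.57 for a log2 fold change of 0.044. At this level the pseudocount of 1 compresses the difference, and with a pseudocount of 0.1 the log2 fold change was 0.11 (exact permutation p = 0.63). At a pseudocount of 1 it was 0.0023 without osg1l2 replicate 1, 0.0047 without wild type replicate 4, 0.0083 without osg1l2 replicate 3 and 0.093 without osg1l2 replicate 2 (exact permutation p from 0.29 to 1).

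GS3 was at 0.0360, 0.0382 and 0.116 FPKM in wild type replicates 1 to 3 and was listed at 0 in wild type replicate 4. An FPKM of 0 can also come from a failed estimate. In osg1l2 GS3 was at 0.138, 0.0548, 0.0605 and 0.0494 FPKM. Every osg1l2 library was above the median of wild type, but wild type replicate 3 exceeded 3 of the 4 osg1l2 libraries, so the groups overlap. The log2 fold change was 0.039 at a pseudocount of 1 (exact permutation p = 0.37) and 0.28 at a pseudocount of 0.1 (exact permutation p = 0.31). With single libraries left out, the log2 fold change of GS3 at a pseudocount of 1 ranged from 0.011 without osg1l2 replicate 1 (exact permutation p = 0.74) to 0.070 without wild type replicate 3 (exact permutation p = 0.057, the smallest that 3 against 4 libraries allow). It was 0.017 without wild type replicate 4 (exact permutation p = 0.63).

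None of the 4 tested G protein genes passed the test across all genes, and none had an unadjusted p under 0.05 (limma on log2(FPKM + 1)). Across all 18254 tested genes 1.93% passed, 0.898% higher and 1.03% lower in osg1l2, and 19.5% had an unadjusted p under 0.05. With 4 genes, a count of 0 called is near the share over all genes. The share of called genes that were higher was 46.6% as deposited, 60.5% after median-of-ratios rescaling, 61.8% after quantile normalization and 66.5% after scaling to a common sum. Not one of the 6 genes had its 4 values in one genotype all above the 4 of the other, a pattern found in 11.8% of all tested genes. With so few genes, a count of 0 is near that share too, and RGG1 and GS3 are not among the tested genes. When all 32542 genes above 0 in any library were tested, 1.32% passed. RGG1 (limma adjusted p = 0.82) and GS3 (limma adjusted p = 0.69) were again not among them.

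The absolute log2 fold changes of the 4 tested genes had a median of 0.023, and the median over all tested genes was 0.090. RGB1 had a smaller absolute change than all but 2.33% of the tested genes, RGG2 than all but 7.36% and DEP1 than all but 20.1%. RGA1 lay further out, with 61.3% of the tested genes changing less. The median log2 fold change of all tested genes was -0.037, so 61.7% of them were below 0, as were RGA1, RGB1 and DEP1. Under median-of-ratios rescaling, which moved that median to -0.0022, the log2 fold change was -0.079 for RGA1, 0.035 for RGB1, 0.048 for RGG2 and 0.0066 for DEP1. The signs for RGB1 and DEP1, and the sizes of the changes, therefore depend on how the libraries are scaled. The ranks among tested genes and the medians of absolute change hold for the values as deposited and were not computed after rescaling. For RGB1 the SE of 0.051 was also larger than its log2 fold change of -0.0036 as deposited.

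**Figure D3:**
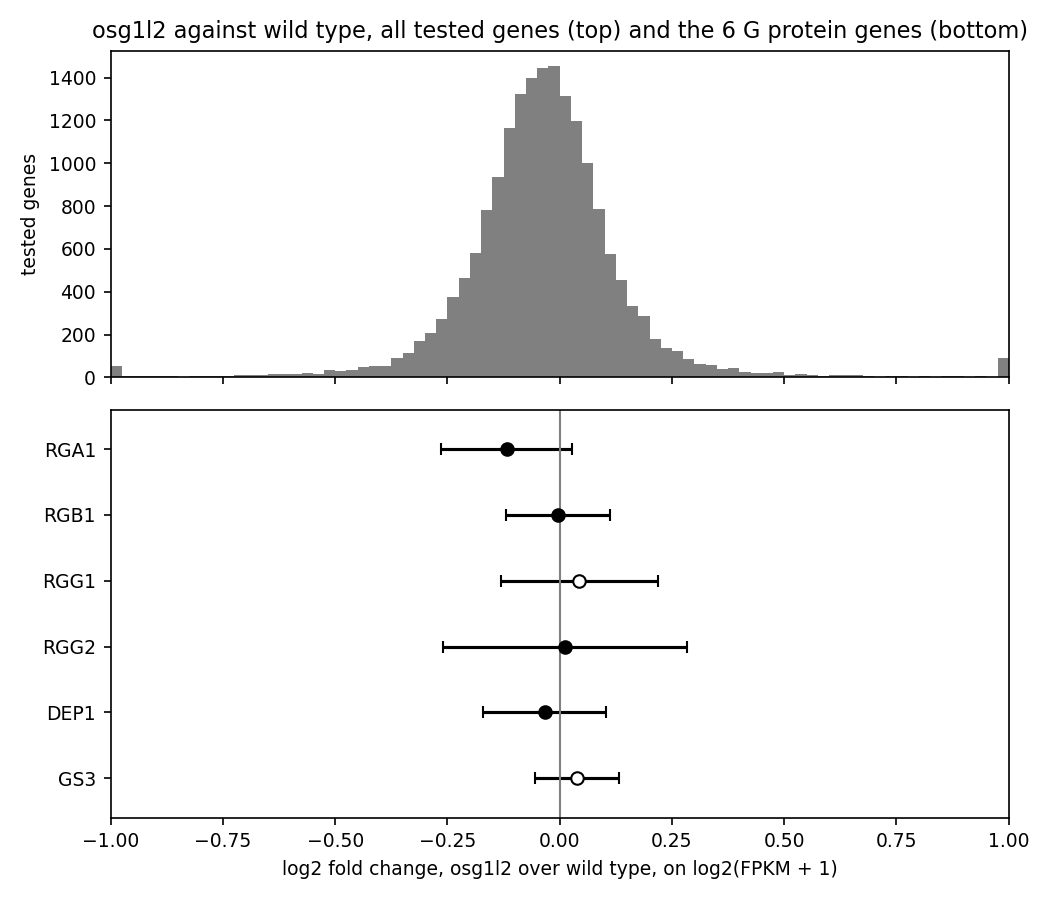
Upper panel, number of tested genes by log2 fold change, computed on log2(FPKM + 1) as mutant over wild type, with the 134 genes beyond ±1 drawn in the outermost bins; lower panel, the 6 G protein genes with 95% intervals from limma, open circles for RGG1 and GS3, which were fitted only without the filter on low values. All 6 intervals include 0, and the point of RGA1 at -0.12 lies furthest to the left.

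Leaving out wild type replicate 2 gave log2 fold changes of -0.086 for RGA1, -0.0033 for RGB1, -0.073 for RGG2 and -0.028 for DEP1, with limma adjusted p between 0.45 for RGA1 and 0.98 for RGB1. RGG2 changed sign without this library. RGG1 was at 0.063 and GS3 at 0.035 (exact permutation p = 0.51 for both). Wild type replicate 4 was the library with the lowest RGA1 in wild type. Without it the log2 fold change of RGA1 was -0.17 and the limma adjusted p was 0.22.

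The authors' deposited table, which lists folds and q-values beside a value for each genotype and whose test is not given, was read for the same genes. In the authors' deposited table the log2 fold change was -0.17 for RGA1 with q = 0.59. It was 0.034 for RGB1 (q = 0.97), 0.10 for RGG2 (q = 0.86) and -0.011 for DEP1 (q = 0.99) in the authors' deposited table. For the low transcripts the authors' deposited table gave 0.13 for RGG1 and 0.63 for GS3, each with q = 1. None of the 6 genes had q under 0.05 in the authors' deposited table, where 2.02% of 37619 entries did. RGB1 is the gene whose sign differs between the authors' deposited table and the FPKM values, and both values lie close to 0.

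The 4 gamma genes described here were also compared by their shares of their summed FPKM. Gamma genes outside this set were not included, so the shares are not of all gamma transcripts. The sum averaged 26.8 ± 0.765 (SD, n = 4) in wild type and 26.5 ± 1.31 (SD, n = 4) in osg1l2. DEP1 made up 77.3% ± 2.91 (SD, n = 4) of this sum in wild type and 76.4% ± 3.26 (SD, n = 4) in osg1l2. RGG2 made up 21.1% ± 2.84 (SD, n = 4) and 21.7% ± 3.80 (SD, n = 4). RGG1 gave 1.44% ± 0.321 (SD, n = 4) in wild type and 1.63% ± 0.502 (SD, n = 4) in osg1l2. GS3 did not exceed 0.441% in any wild type library or 0.528% in any osg1l2 library. The shares of DEP1 ranged from 73.6% to 80.7% in wild type and from 73.4% to 80.1% in osg1l2, so the spread between libraries of one genotype was wider than the difference between the means. Without wild type replicate 2 the wild type shares were 76.2% ± 2.27 (SD, n = 3) for DEP1, 22.3% ± 1.89 (SD, n = 3) for RGG2 and 1.36% ± 0.337 (SD, n = 3) for RGG1, of a gamma sum of 27.1 FPKM ± 0.644 (SD, n = 3).

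**Figure D4:**
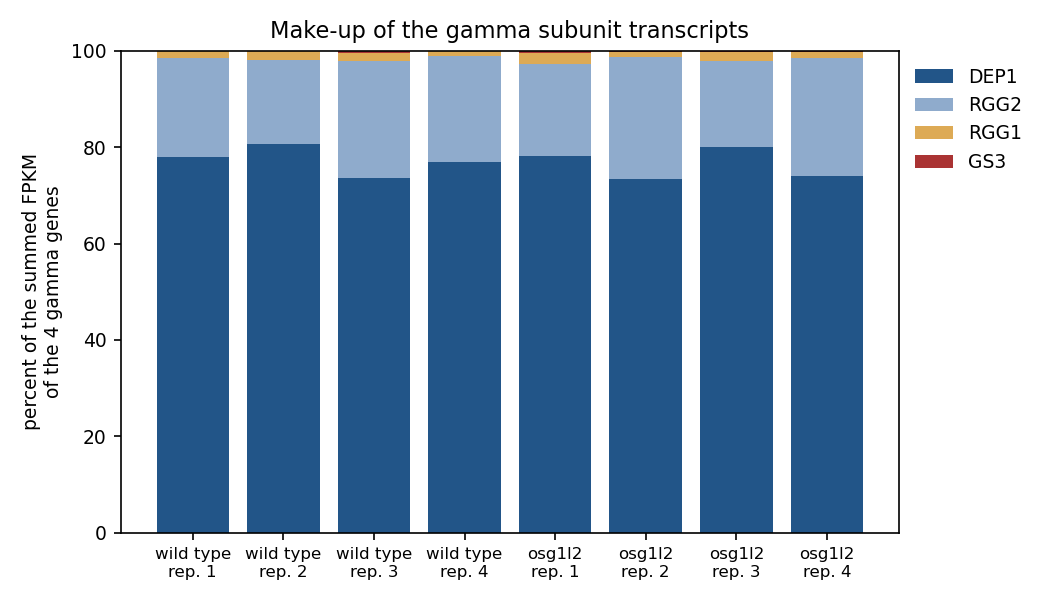
Percent of the summed FPKM of the 4 gamma genes described here taken by each of them, with 1 bar per library. DEP1 takes 73.4% to 80.7% in all libraries, RGG2 most of the rest, and GS3 is barely visible at 0.528% or less.

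The balance between subunits was examined within each library, as the log2 ratio of FPKM + 1 between genes. A common scaling factor of a library largely cancels in such ratios for the abundant genes. The 6 ratios set RGA1 and each gamma gene over RGB1, the beta gene, and DEP1 over GS3. The FPKM ratio of RGA1 to RGB1 was 1.26, 1.39, 1.39 and 1.15 in the wild type libraries. In the osg1l2 libraries it was 1.18, 1.13, 1.20 and 1.24. The ratio was thus higher in 3 wild type libraries than in any osg1l2 library, and wild type replicate 4 lay within the osg1l2 range. The mean log2 ratio was 0.35 ± 0.12 (SD, n = 4) in wild type and 0.23 ± 0.053 (SD, n = 4) in osg1l2, a difference of -0.11 (exact permutation p = 0.17, adjusted p = 0.86 over 6 ratios). Over the fits that omit 1 library, the difference ranged from -0.17 without wild type replicate 4 (exact permutation p = 0.057, the smallest possible there) to -0.083 without wild type replicate 2 (exact permutation p = 0.34). Without wild type replicate 3 it was also -0.083 (exact permutation p = 0.34).

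The FPKM ratio of DEP1 to RGB1 was 1.81, 1.87, 1.82 and 1.91 in wild type and 1.93, 1.71, 1.99 and 1.64 in osg1l2. The wild type libraries all lay within the wider range of osg1l2. The mean log2 ratio was 0.83 ± 0.035 (SD, n = 4) in wild type and 0.80 ± 0.13 (SD, n = 4) in osg1l2, and the difference of -0.030 was within the spread (exact permutation p = 0.71). The ratio of RGG2 to RGB1 ranged from 0.407 to 0.600 in wild type and from 0.440 to 0.592 in osg1l2 (difference 0.015 on the log2 scale, exact permutation p = 0.94). RGG1 over RGB1 differed by 0.047 on the log2 scale (exact permutation p = 0.69) and GS3 over RGB1 by 0.042 (exact permutation p = 0.54). DEP1 over GS3, the balance of the cysteine-rich gamma genes among the 6 described here, differed by -0.072 (exact permutation p = 0.40). The pseudocount makes up most of the value of RGG1 and GS3 in these ratios. At a pseudocount of 0.1 the differences were 0.11 for RGG1 over RGB1 (exact permutation p = 0.69), 0.28 for GS3 over RGB1 (p = 0.34 by the exact permutation test) and -0.32 for DEP1 over GS3 (p = 0.31 by the same exact test). Without wild type replicate 2, at a pseudocount of 1, RGG2 over RGB1 turned to -0.070, and DEP1 over RGB1 was at -0.025. The differences without that library were 0.066 for RGG1 over RGB1, 0.038 for GS3 over RGB1 and -0.063 for DEP1 over GS3. None of the 6 ratios passed 0.05 before adjustment, and the smallest p that 4 against 4 libraries allow is 0.029.

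**Figure D5:**
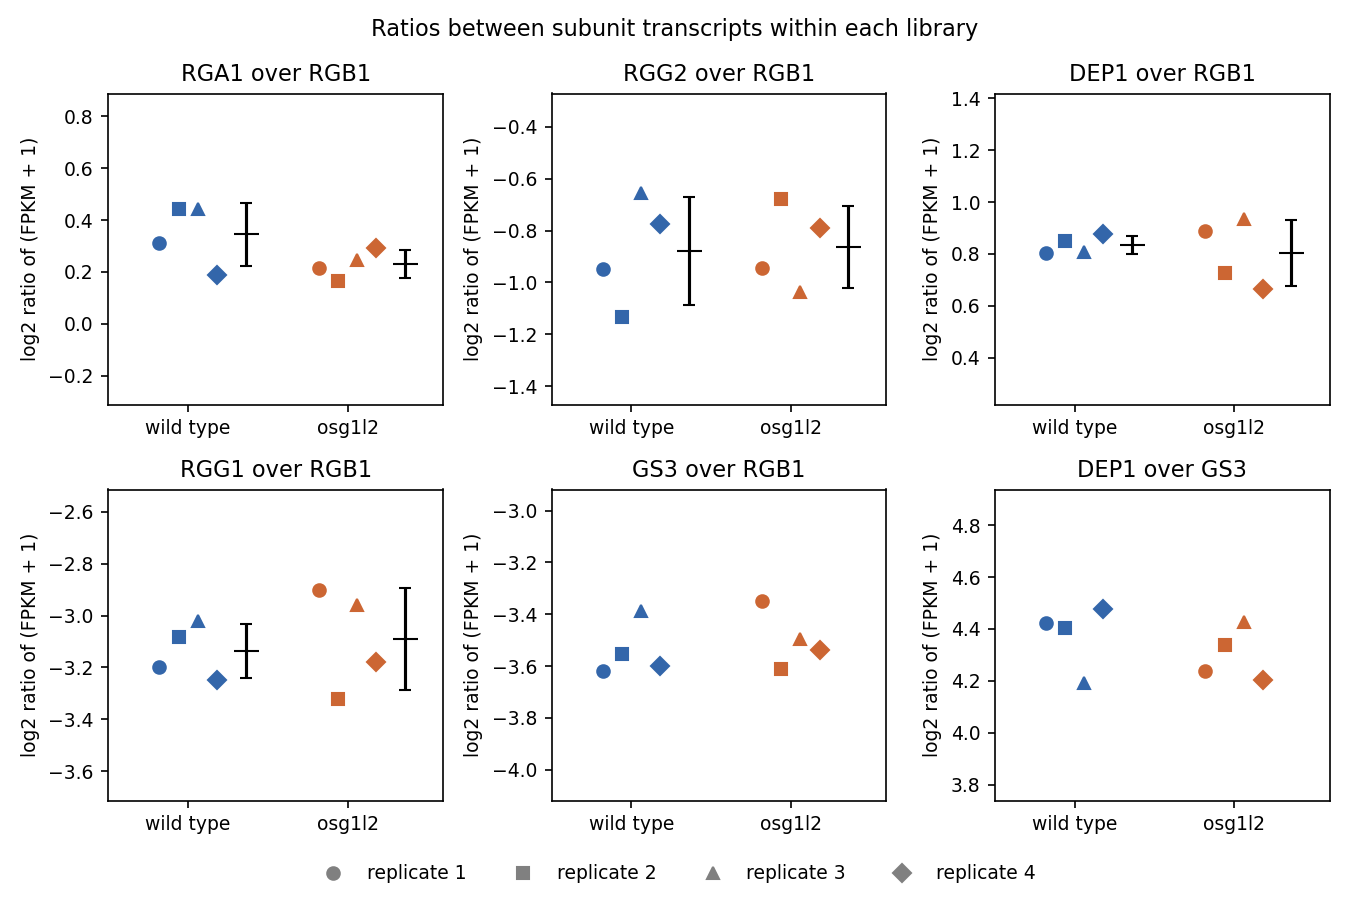
Log2 ratio of FPKM + 1 between subunit genes within each library, by genotype, with symbols for replicates 1 to 4 and, for ratios without GS3, mean ± SD of 4 libraries; every panel spans the same height on the log2 scale. The genotypes overlap in all 6 panels, and the RGA1 over RGB1 panel has wild type replicates 1, 2 and 3 above all osg1l2 libraries.

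Summed over the 6 genes, G protein transcripts amounted to 53.8, 52.7, 51.9 and 51.6 FPKM in wild type, and to 49.3, 53.0, 51.4 and 49.9 FPKM in osg1l2. The highest osg1l2 library exceeded 3 of the wild type libraries, and the groups overlap. The wild type mean of this sum was 52.5 FPKM, and 52.4 FPKM without replicate 2, and the osg1l2 mean was 50.9 FPKM (exact permutation p = 0.17). Total FPKM over all genes ranged from 218558 to 231675 in wild type and from 213940 to 221906 in osg1l2. The 6-gene sum was not rescaled for these totals, so its lower mean in osg1l2 holds only for the values as deposited. With libraries scaled to a common sum of FPKM, the log2 fold changes were -0.065 for RGA1, 0.049 for RGB1, 0.061 for RGG2 and 0.021 for DEP1. Library profiles of the tested genes were compared by the root mean square difference of log2(FPKM + 1) over the 8 libraries, after each gene was centred on its own mean. DEP1 and RGB1 were the closest pair among the tested members, at 0.083, and DEP1 and RGG2 the furthest, at 0.22. These distances also depend on how much each gene varies. Within genotypes RGB1 had the smallest SD of the tested members (0.058 on the log2 scale) and RGG2 the largest (0.20). Among the members a small distance therefore does not show that genes rise and fall together. By the same measure the tested genes most like DEP1 were Os03g0577100, at 0.032, and Os08g0558800, at 0.033. Both distances were below the SD of DEP1 within genotypes (0.082 on the log2 scale), so both genes varied in part with DEP1 across these libraries. How far this goes beyond picking the closest of all tested genes was not tested. The choice used these same libraries, genotype difference included. That neither gene passed the test between genotypes (limma adjusted p = 0.65 for both) therefore follows largely from the choice.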

How the data were processed

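The authors deposited 1 FPKM value per gene and library, and the submitters' processing notes name build IRGSP-1.0; aligner, quantifier and strandedness are not given in the sources, so overlapping antisense reads cannot be told apart. The authors' deposited comparison table holds genotype values and log2 fold changes (both treated as a score, since the header names no unit) and q-values, per the file headers. Its wild type values were typically (median) 1.63 times the mean FPKM, so levels were not compared across tables. Depth is unknown, and no count test was run.

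The 18254 genes whose mean over 8 libraries reached 1 FPKM were tested on log2(FPKM + 1) with limma 3.58.1 in R 4.3.3 (variance trend, two-sided, Benjamini-Hochberg over all tested genes, called at 0.05). The limma fit was also run on simulated data with independent errors and no library-wide shifts. The effects added there were larger than the log2 fold changes of the tested members. That run therefore does not cover changes of their size, an outlying library or differences in scaling. Single genes and ratios were compared by exact two-sided permutation tests (scipy 1.17.1). Alternatives were pseudocounts, filters, rescaling, a replicate block, library weights, a robust prior and left-out libraries. All 6 genes were named, with the 2 tested genes most like DEP1. Members, gene lists and ratios were chosen with earlier results of these data known. A list of 15 further pathway identifiers was not used, because no table here pairs them with names, and no sequence was used. The reference gene table, on assembly ASM3414082v1, held none of the 6 identifiers.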

Additional observations from a re-analysis of the deposited data

Results flagged for a closer look

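In 28 groups of 4 values, 3 had a lowest or highest value far from the other 3; chance alone would mark about 1 in 20 groups of independent values, and these groups share libraries. DEP1 in wild type was flagged for replicate 3, at 19.4 FPKM against 21.0 to 21.3 FPKM in the others, where the gap to the nearest value was 0.833 of the group's range on the log2(FPKM + 1) scale. GS3 in osg1l2 was flagged for replicate 1, at 0.138 FPKM against 0.0494 to 0.0605 FPKM, with a gap of 0.871 of the range. The score of wild type replicate 2 on the second principal component had a gap of 0.849 of the range.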

How the results depend on the processing

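The limma adjusted p of the 4 tested genes was 0.22 or higher under every alternative. The ratios, RGG1 and GS3 rest on exact tests that cannot go below 0.057 with 1 library left out or 0.125 with the replicate block, so those settings say nothing about whether a call holds. RGA1 kept its negative log2 fold change, from -0.17 to -0.065, in every setting run. RGG1 and GS3 stayed positive, but with single libraries left out they ranged from 0.0023 to 0.093 and from 0.011 to 0.070. RGB1 turned from -0.0036 to 0.035 with median-of-ratios rescaling, 0.031 with quantile normalization and 0.049 with a common sum of FPKM, and DEP1 from -0.034 to 0.0066 and 0.021 under the first and last of these. Library quality weights turned RGG2 from 0.012 to -0.045. With each library left out in turn, log2 fold changes ranged from -0.032 to 0.018 for RGB1, -0.077 to 0.078 for RGG2 and -0.069 to 0.011 for DEP1, and ratio differences from -0.016 to 0.12 for RGG1 over RGB1, -0.070 to 0.090 for RGG2 over RGB1, -0.074 to 0.016 for DEP1 over RGB1 and -0.0072 to 0.093 for GS3 over RGB1. The cause was not tested beyond the scaling itself. The count of 352 called genes was 153 at a mean of at least 5 FPKM, where fewer genes were tested, 1097 with library quality weights, 152 with the replicate block and 155 to 826 without each library. No pairing of libraries by replicate number was detected (correlations of deviations 0.069, -0.017, -0.091 and -0.12), which cannot show that no batch was shared. With the replicate block the limma adjusted p was 0.50 for RGA1 and the exact permutation p at least 0.375 for the ratios. Ratios with GS3 were not computed without a pseudocount, since 1 library is listed at 0, and RGG1 and GS3 lay below the filter of the quantile, weighted, robust and 5 FPKM fits. Depth is unknown, so what it limits for the low genes could not be assessed.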
